A study of Homo sapiens with 24 samples.

Results

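The genes described are the cytoplasmic translation initiation and elongation factors of a B-cell lymphoma line, followed after a reagent directed at the MYC gene or its RNA. They are the protein-coding genes of the 72 h table whose symbol starts with EIF or EEF, without the eIF2 kinases (EIF2AK) and without hyphenated names. The rule found 64 of the 19836 genes in that table and dropped 5 names. All 64 were found by Ensembl identifier among the 61541 genes of the 48 h table. The level of 1 Y-linked member is not reported, and the values below cover the other members. EIF4E1B, a cap-binding protein of germ cells, was listed at 0 in all 24 libraries. After the filter on low values, 60 members were tested at 48 h, where EEF1G and EIF4EBP3 also fell out, and 62 at 72 h. Of those tested, 21 were called in no comparison, with log2 fold changes from -0.76 to 0.99, both in EIF4E3.

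Protein synthesis starts when eIF2 brings the initiator tRNA to the small ribosomal subunit, eIF3 holds that subunit ready, and the eIF4 proteins bind the mRNA cap and unwind the leader. eIF1, eIF1A and eIF5 select the start codon, and eIF5B joins the large subunit. The eEF1 complex then delivers aminoacyl-tRNAs and eEF2 moves the ribosome along. MYC is known to raise the output of the translation machinery. Many elongation factor and eIF3 mRNAs begin with a C followed by pyrimidines, the 5′ terminal oligopyrimidine (TOP) tract, through which mTOR and LARP1 control their translation and stability together with the ribosomal protein mRNAs.

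RNA was sequenced from U2932 cells, an established line of human diffuse large B-cell lymphoma. At 48 h there were 4 libraries labelled PNA2 (a gamma PNA, that is a DNA mimic whose bases hang on a peptide-like chain; the labelled dose is 8 mM, and its unit is doubtful), 4 labelled siRNA (500 nM, by electroporation) and 6 PBS controls. At 72 h there were 5 labelled PNA2 and 5 PBS controls. PNA2 and siRNA libraries carry a MYC knockdown as their labelled genotype, and controls are given as wild type. The labels name no electroporated control, so the siRNA comparisons hold electroporation too, and the siRNA libraries' cell line entries differ from U2932 in the last digit. The protocol puts RNA extraction at 48 h throughout, and the titles and time entries were followed for the 72 h libraries. The labels do not say that replicates were separate cultures, so p-values measure the spread between these libraries.

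Values below are normalised read counts, scaled within each table, and the 48 h and 72 h levels are not compared with each other. Library totals ran from 11.12 M to 16.17 M in the 48 h table and from 8.215 M to 13.69 M reads at 72 h. The 48 h libraries fell into 2 batches, called A and B here, that were read from tied low values: batch A holds PNA2 1 and 2, all siRNA libraries and controls 1, 2 and 4. MYC itself stood at 7182, 7315, 7858 and 8908 in the 48 h libraries labelled PNA2 and at 3591, 3968, 4186 and 3612 in the siRNA libraries, against 5454 to 7645 (median 6881) in controls. It was lower in siRNA than in control libraries (log2 fold change -0.81, limma adjusted p = 0.000319), and 0.24 higher in those labelled PNA2, which did not pass (adjusted p = 0.0956). At 72 h MYC was 2007, 2032, 459.9, 1966 and 1809 in PNA2 and 1121, 2321, 2035, 2845 and 826.4 in control libraries (-0.18, limma adjusted p = 0.794). MYC was thus not called lower in the libraries labelled PNA2 at either time, and every direction given for PNA2 rests on the label. Markers of T and NK cells summed to at most 23.37 and those of red cells and megakaryocytes to at most 7.011 in any group, with CD2, CD3D, PF4 and PPBP at 0 in every library; 6 myeloid markers summed to at most 45.02. The 5 B cell markers summed to 23440 to 27232 in PNA2 and 18954 to 20367 in control libraries at 72 h, and to 25750 to 40509, 39269 to 41053 and 33030 to 36404 in PNA2, siRNA and control libraries at 48 h. The 5 stromal and epithelial markers summed to 214.5 to 448.1, 277.8 to 303.0 and 194.6 to 279.9 in PNA2, siRNA and control libraries at 48 h, and to 129.8 to 187.4 in PNA2 and 127.4 to 164.3 in control libraries at 72 h. The part of these lists in the results was not tested.

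The first bases of the mRNA are shown here because the members are grouped by them further on. The RefSeq start site table (GRCh38.p14) held 50 members. A tract was taken as an unbroken run of at least 5 C or T that begins with a C at the annotated start. It was present in 12 of the 50 members (24%), against 1404 of all 27305 genes in that table (5.14%). The 12 were EEF1A1, EEF1B2, EEF2, EIF2A, EIF2D, EIF2S3, EIF3D, EIF3F, EIF3K, EIF3M, EIF4A2 and EIF4B. The lines below give 10 bases before the start and 20 from it on, 5′ to 3′ on the gene's strand, with the tract in capitals. Those with a tract are elongation factors, eIF3 subunits and helicase factors whose values the results turn on. The last 3, EIF5B, EEF2K and EEF1E1, lack one and were each lower in PNA2 libraries at one time or both. They do not stand for all members without a tract. Of these, 0 of 35 were higher and 9 lower in PNA2 at 48 h, and 7 of 37 higher and 5 lower at 72 h. The shares of all genes tested were 8.13% higher and 8.58% lower at 48 h, and 12.1% and 11.7% at 72 h. The lower count at 72 h was near the share of all genes.
EEF1A1 (chr6:73521013-73521042, reverse strand): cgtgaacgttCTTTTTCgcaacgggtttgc
EEF2 (chr19:3985444-3985473, reverse strand): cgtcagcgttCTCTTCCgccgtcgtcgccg
EEF1B2 (chr2:206159885-206159914, forward strand): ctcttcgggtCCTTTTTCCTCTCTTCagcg
EIF3K (chr19:38619178-38619207, forward strand): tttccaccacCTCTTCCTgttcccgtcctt
EIF3F (chr11:7987327-7987356, forward strand): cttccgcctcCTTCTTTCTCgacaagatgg
EIF3D (chr22:36529147-36529176, reverse strand): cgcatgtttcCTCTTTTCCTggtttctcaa
EIF4B (chr12:53006446-53006475, forward strand): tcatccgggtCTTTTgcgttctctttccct
EIF4A2 (chr3:186783567-186783596, forward strand): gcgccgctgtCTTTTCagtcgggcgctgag
EIF5B (chr2:99337379-99337408, forward strand): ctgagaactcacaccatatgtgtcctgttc
EEF2K (chr16:22206268-22206297, forward strand): gcccgcttctgctcaacctagaccagcccc
EEF1E1 (chr6:8102529-8102558, reverse strand): tgcaggtctcgcgtctgccaggagctacgg

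The runs range from 5 bases in EIF4B and 6 in EIF4A2 to 10 in EIF3D and EIF3F and 16 in EEF1B2. EEF1B2 has another annotated start with no tract, and the annotated start of EEF1G, a member long known as a TOP mRNA, has none, so the windows hold what RefSeq places there and no more.

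In the libraries labelled PNA2 at 48 h, 7 of 60 tested members were higher than in controls and 9 were lower, against 8.13% and 8.58% of all 14136 genes tested (11.7% and 15% of the members). The 7 were EIF3F, EIF3K, EIF3L, EIF3D, EIF3H, EEF1B2 and the low-level EEF1A2, and the 9 were EIF5B, EIF4A1, EEF1E1, EIF3B, EIF4G1, EIF4G2, EIF2B2, EIF2B4 and EIF2B5. The median member was at a log2 fold change of -0.03, next to -0.002 for all genes. Without rescaling of libraries, which moved the median of all genes by 0.19, the split was 11 higher and 2 lower.

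At 72 h, 16 of 62 members were higher in PNA2 than in control libraries and 7 were lower, against 12.1% and 11.7% of all 11985 genes tested (25.8% and 11.3% of the members). The higher ones included EEF1A1, EEF1B2, EEF2, EIF3I, EIF3L, EIF3D, EIF3H, EIF3K, EIF1, EIF6, EIF5A and EIF4EBP1, and the 7 lower ones were EIF5B, EIF4A2, EEF2K, EIF3J, EIF3A, EIF4G2 and EIF1AX. The share of members that were lower was near that of all genes. Their median was 0.04, next to -0.005 for all genes. The count of lower members was 3 without control 1, control 3 or PNA2 1, and 4 without control 4, control 5 or PNA2 2.

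In siRNA libraries 0 of 60 members were higher than in controls and 17 were lower, against 9.34% and 8.06% of all genes. At an unadjusted p under 0.05 the limma counts were 2 higher and 24 lower. The fold change was below 0 in 52 of 60 members, with a median of -0.19 next to 0.0002 for all genes. The siRNA and PNA2 libraries at 48 h were set against the same 6 controls. The count of 17 depended on scaling and batch: it was 0 (2 higher) without rescaling, which raised the median of all genes by 0.22, 5 without the batch term and 20 withwithin batch A, which holds all siRNA libraries. Leaving out a library gave 9 without control 1, 10 without control 2, and 9, 9, 8 and 9 without siRNA 1, 2, 3 and 4.

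Set directly against siRNA, the PNA2 libraries at 48 h had 18 higher and 4 lower members, against 11.5% and 12.4% of all genes. The higher ones were 8 eIF3 subunits, 3 parts of the eEF1 complex, EIF2S2, EIF2S3, EIF4B, EIF1, EIF1B, EIF5A2 and EEF1AKMT2, and the lower ones were EIF4G2, EIF2S1, EIF2B5 and EIF4ENIF1. The median member was at 0.11, next to -0.01 for all genes. Without rescaling the split was 6 higher and 1 lower.

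**Figure D1:**
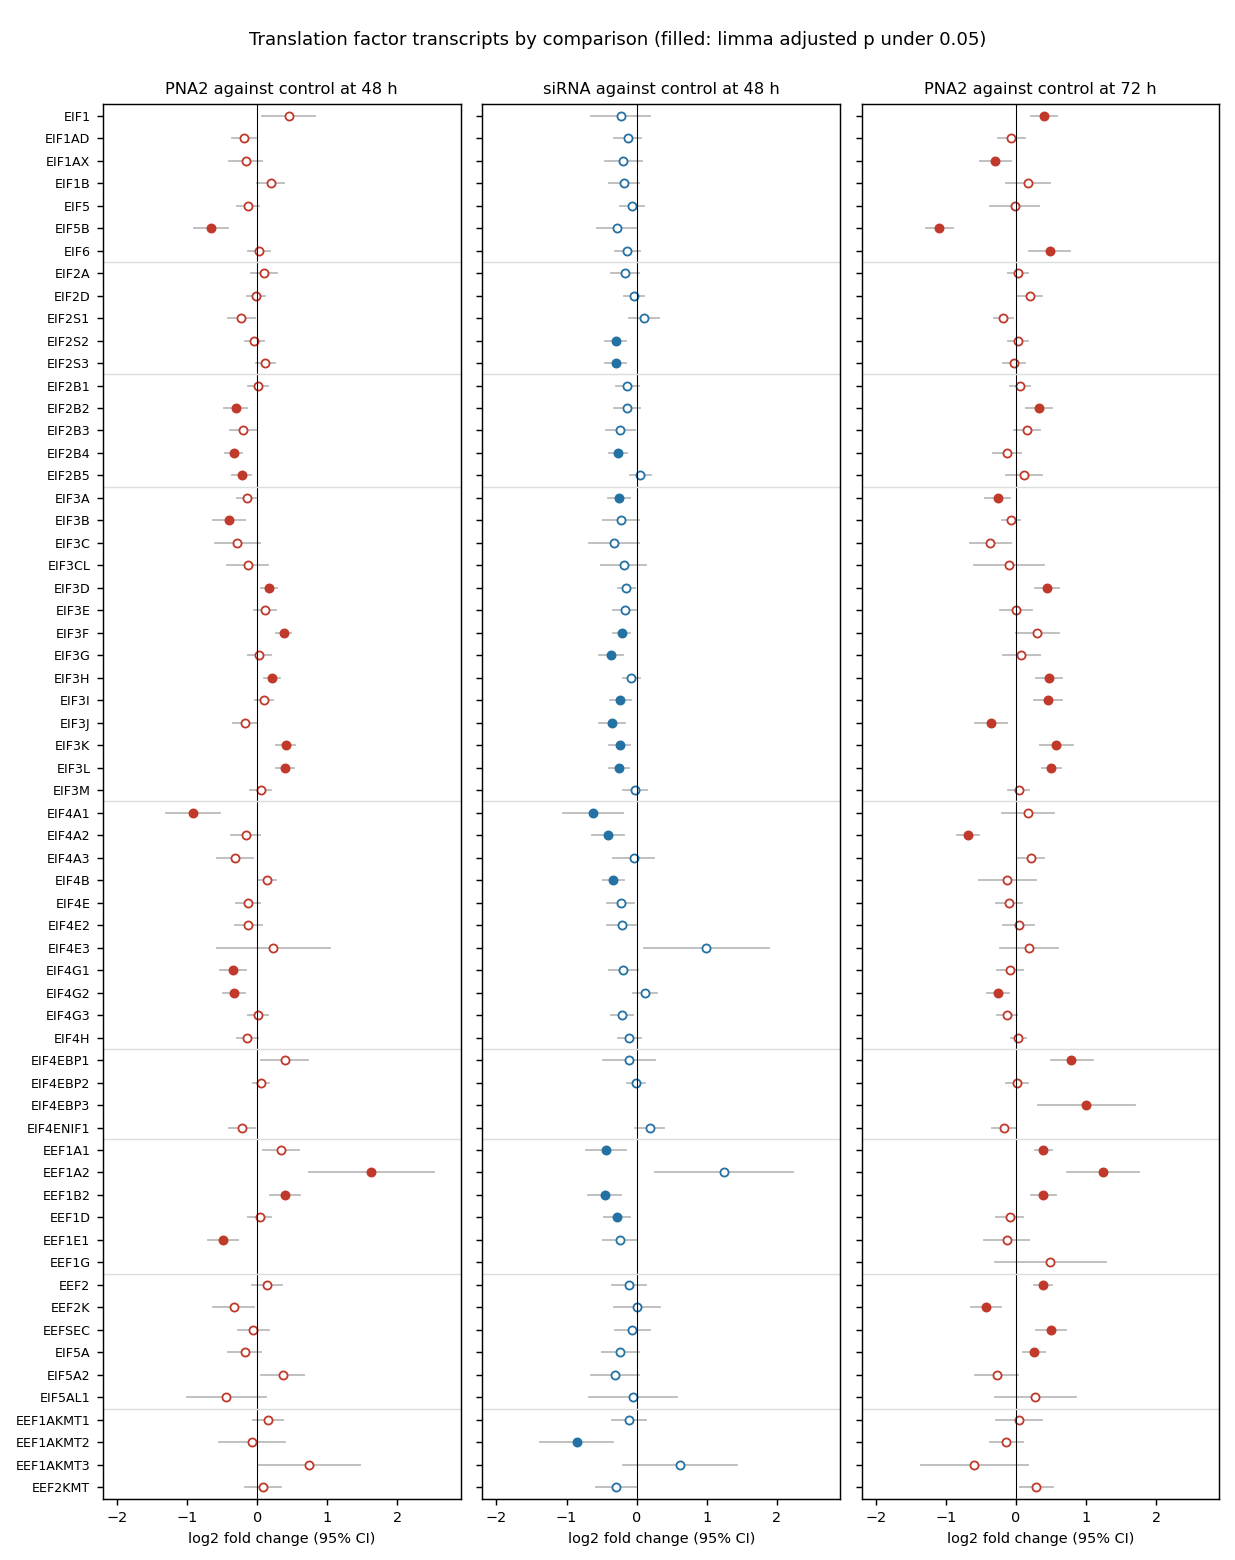
Log2 fold change with its 95% confidence interval for each tested member, grouped by role, in PNA2 against control at 48 h, siRNA against control at 48 h and PNA2 against control at 72 h; filled points have a limma adjusted p under 0.05. EIF5B is the lowest filled point at 72 h (-1.09), and no filled point in the siRNA panel lies above 0, where without library rescaling none of the 17 was called and EIF3F lay at 0.01.

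The eEF1 complex brings aminoacyl-tRNA to the ribosome, with EEF1A1 as the GTPase that carries it. EEF1A1 had 188351, 164561, 161773 and 163739 in PNA2 libraries and 109164, 106393, 103698 and 103313 in siRNA libraries at 48 h, against 117805 to 156752 (median 131643) in controls. All PNA2 libraries lay above and all siRNA libraries below all controls. The change was 0.34 in PNA2 (SE 0.12, adjusted p = 0.0699, not called; 0.28 within batch A and 0.40 within B) and -0.44 in siRNA (SE 0.14, adjusted p = 0.0366). The siRNA call was lost without control 1, control 2, unnumbered control 7 or any one siRNA library (adjusted p = 0.0603 to 0.123). The direct comparison of PNA2 with siRNA gave 0.77 (SE 0.15, adjusted p = 0.00148). At 72 h EEF1A1 had 68970, 72009, 79876, 67795 and 68107 in PNA2, against 52627, 52353, 56378, 56913 and 53847 in control libraries. The groups did not overlap (0.39, SE 0.06, adjusted p = 0.00131). EEF1A1 has 39 annotated pseudogenes named after it, which could take or give reads.

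EEF1B2, the exchange factor that recharges eEF1A with GTP, followed the same order. It had 11630, 10148, 9741 and 10032 in PNA2 and 6452, 6216, 5784 and 5987 in siRNA libraries at 48 h, against 5806 to 8950 (median 8247) in controls. It was higher in PNA2 (0.40, SE 0.10, adjusted p = 0.014; 0.36 within batch A, 0.43 within B) and lower in siRNA (-0.46, SE 0.11, adjusted p = 0.011), although control 3 at 5806 lay among the siRNA values. PNA2 against siRNA gave 0.85 (adjusted p = 0.000151). At 72 h EEF1B2 stood at 7845, 7760, 10009, 7658 and 7179 in PNA2 and at 5883, 6076, 6303, 6209 and 6180 in control libraries, again without overlap (0.39, adjusted p = 0.00646). EEF1D, another exchange subunit, was lower in siRNA (-0.28, adjusted p = 0.0336; lost without control 1, control 2 or any one siRNA library, adjusted p = 0.0516 to 0.109) and stood at 0.03 in PNA2 at 48 h and -0.09 at 72 h, neither called. EEF1E1, a small scaffold protein of the aminoacyl-tRNA synthetase complex named after eEF1, went the other way. It had 160.4, 157.7, 145.8 and 159.5 in PNA2 libraries, against 180.1 to 264.2 (median 217.6) in controls, all lower (-0.49, SE 0.10, adjusted p = 0.00539; -0.54 within batch A, -0.44 within B), and -0.13 at 72 h, not called. EEF1A2, the eEF1A form of muscle and neurons, stayed at low values of 12.47 to 72.11 in PNA2 and 6.208 to 22.51 in control libraries at 48 h, and 52.54 to 98.95 against 21.93 to 41.11 at 72 h. It was called higher in PNA2 at both times (1.63 and 1.24, adjusted p = 0.016 and 0.00402), the 48 h call being lost without PNA2 4 (adjusted p = 0.0526). The siRNA values of EEF1A2 were 21.33 to 29.02, a change of 1.25 over controls that was not called. PNA2 against siRNA was not called for EEF1A2 either.

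EEF1G, the subunit that anchors the eEF1 exchange complex, was listed at 0 in all 48 h libraries. At 72 h it had 32785, 10997, 13060, 29004 and 29634 in PNA2 libraries, against 8296, 18365, 18542, 10849 and 24120 in controls, with no call (0.49, SE 0.36, adjusted p = 0.345). EEF1G lies at chr11:62559601-62574086 on the reverse strand (GRCh38, GENCODE 29), and 99.9% of its exon bases are also exon bases of AP002990.1, a protein-coding gene on the same strand. AP002990.1 had 585.9, 22699, 29433, 129.8 and 118.2 in the same PNA2 libraries and 15267, 5592, 6838, 13310 and 309.2 in the controls, high where EEF1G was low. The sum of the pair was 33371, 33695, 42492, 29134 and 29752 in PNA2, against 23562, 23958, 25380, 24159 and 24429 in control libraries. Summed, the libraries averaged 33689 ± 5335 in PNA2 and 24298 ± 683 in controls (SD, n = 5 each), did not overlap, and differed by 0.46 (SE 0.09, adjusted p = 0.00487). The sum was added after the split between the genes had been seen.

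**Figure D2:**
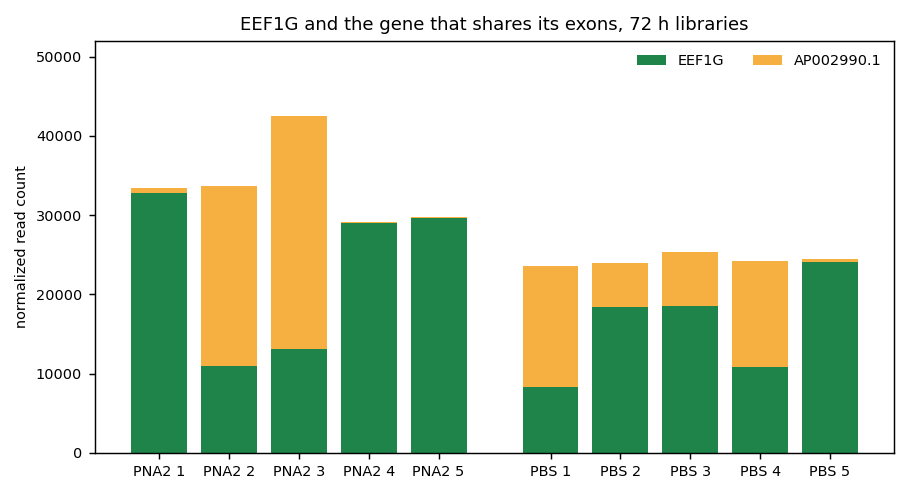
Normalised read counts of EEF1G (green) and of AP002990.1, which shares its exons (orange), stacked for the 5 PNA2 and 5 PBS control libraries at 72 h. Their split differs between libraries of one group, while the stacks run from 29134 to 42492 in PNA2 and from 23562 to 25380 in control libraries.

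EEF2, the translocase, held a level per kilobase of exon of 16925 ± 1411 in PNA2 and 12931 ± 391 in control libraries at 72 h (SD, n = 5 each). This was the highest among the members, followed by EEF1A1 at 11996 ± 849 and 9150 ± 355, with EEF1G counted without AP002990.1. At 48 h EEF1A1 ranked first, at 28515 ± 2110 in PNA2 (n = 4) and 22674 ± 2608 in control libraries (n = 6). EEF2 ranked second there, at 15685 ± 2137 and 14148 ± 903. The counts of EEF2 at 72 h were 71726, 69014, 75198, 61994 and 62850 in PNA2, against 50194, 53394, 52804, 50551 and 53417 in control libraries. Every PNA2 library was above every control (0.38, SE 0.06, adjusted p = 0.00187). At 48 h it had 57714, 75991, 60068 and 58884 in PNA2 and 54443, 52152, 57490 and 54544 in siRNA libraries, against 52337 to 62148 (median 56907) in controls. PNA2 replicate 2 stood far above the rest, and neither change was called (0.14 and -0.12, adjusted p = 0.358 and 0.528). EEF2K, the kinase that inhibits eEF2, had 847.3, 820.1, 692.6, 854 and 1024 in PNA2, against 1205, 1168, 1120, 1136 and 1047 in control libraries at 72 h, all lower (-0.43, SE 0.10, adjusted p = 0.00859). The 48 h change of EEF2K in PNA2 was -0.33 and was not called (adjusted p = 0.11), with 187.3 in PNA2 replicate 2 next to 273.8 to 332.5 in the others.

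EIF5A, the hypusine-bearing factor that helps ribosomes through difficult peptide bonds, had 9133, 9033, 10077, 7638 and 8411 in PNA2, against 7176, 7363, 7428, 7133 and 7824 in control libraries at 72 h. It was higher (0.26, SE 0.07, adjusted p = 0.0241) with 1 PNA2 value inside the control range, and the call was lost without control 1, control 4, PNA2 1 or PNA2 2 (adjusted p = 0.0547 to 0.058). At 48 h EIF5A had 9289, 6577, 8380 and 8646 in PNA2 and 7861, 8108, 8416 and 7575 in siRNA libraries, within the control range of 7499 to 10965 (median 9404) but for PNA2 replicate 2, and was not called. EEFSEC, which delivers selenocysteine, was higher in PNA2 at 72 h (0.50, adjusted p = 0.00474) and stood at -0.06 at 48 h, not called. EIF5A2, the second eIF5A gene, was higher in PNA2 than in siRNA libraries (0.67, adjusted p = 0.011). Of the methyltransferases of elongation factors, EEF1AKMT2 alone passed a test: it was lower in siRNA than in control libraries (-0.85, adjusted p = 0.0251) and higher in PNA2 than in siRNA libraries (0.78, adjusted p = 0.0415), at values of 25.29 to 70.21 over the 48 h libraries. Either call was lost without any of several single libraries: control 1, control 2, siRNA 2 or siRNA 3 for the lower one (adjusted p = 0.0574 to 0.0874), and PNA2 1, PNA2 2, siRNA 2 or siRNA 3 for the higher one (adjusted p = 0.0769 to 0.123).

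eIF3 is the large complex that keeps the ribosomal subunits apart and recruits mRNA. Of its 14 members, 5 were higher and 1 lower in PNA2 than in control libraries at 48 h, and 5 were higher and 2 lower at 72 h. Of all genes tested, 8.13% were higher and 8.58% lower at 48 h, and 12.1% and 11.7% at 72 h. The lower eIF3 count at 72 h was thus near the share of all genes. In siRNA libraries 7 of the 14 members were lower and 0 higher, against 8.06% and 9.34% of all genes. The fold change was below 0 in all 14. Without rescaling none of the 7 was called, and EIF3F changed sign (0.01). Between PNA2 and siRNA the change was 8 higher and 0 lower, against 11.5% and 12.4% of all genes. EIF3K and EIF3L, a pair of subunits at the edge of the complex, showed the widest gaps.

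EIF3K had 4925, 4395, 4576 and 4544 in PNA2 and 3047, 2989, 3164 and 2977 in siRNA libraries at 48 h, against 3032 to 3870 (median 3550) in controls. At 72 h it had 4353, 4466, 5780, 3698 and 3730 in PNA2, against 2834, 2960, 2924, 2961 and 2952 in control libraries. PNA2 libraries were above all controls at both times (0.41 and 0.57, SE 0.06 and 0.11, adjusted p = 0.00112 and 0.00397; 0.35 within batch A and 0.47 within B), and siRNA libraries overlapped the lowest control (-0.24, SE 0.07, adjusted p = 0.03; -0.26 withwithin batch A). EIF3L had 4434, 4062, 4086 and 3966 in PNA2 and 2718, 2829, 2729 and 2705 in siRNA libraries, against 2741 to 3523 (median 3134) in controls. At 72 h EIF3L stood at 7691, 6465, 7423, 6564 and 7444 in PNA2 and at 4976, 5069, 4713, 5281 and 4992 in control libraries. The groups labelled PNA2 and control did not overlap at either time (0.40 and 0.50, adjusted p = 0.000718 and 0.000714), and siRNA was lower (-0.25, adjusted p = 0.0164). The siRNA call of EIF3K was lost without control 1, control 2 or any one siRNA library (adjusted p = 0.055 to 0.115), and that of EIF3L without control 2, siRNA 1 or siRNA 4 (adjusted p = 0.0559 to 0.0721). PNA2 against siRNA gave 0.65 for each (adjusted p = 4.98e-05 for EIF3K and 2.58e-05 for EIF3L). A gene of another class, AL022311.1, covers 41.1% of the EIF3L exon bases on the same strand.

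EIF3F had 4219, 4328, 3799 and 3833 in PNA2 and 2732, 2779, 2925 and 2786 in siRNA libraries at 48 h, against 2864 to 3316 (median 3150) in controls. Its PNA2 change of 0.38 (SE 0.05) had the smallest adjusted p of the members in that comparison (0.000325; 0.40 within batch A, 0.36 within B). The siRNA change was -0.21 (adjusted p = 0.017), and the call was lost without siRNA 1, siRNA 2 or siRNA 4 (adjusted p = 0.0602 to 0.0661). At 72 h EIF3F had 3573, 3409, 5404, 4148 and 3100 in PNA2, against 3201, 3393, 2515, 3209 and 3401 in control libraries, which overlapped (0.30, adjusted p = 0.14). EIF3D, the subunit that can itself bind a cap, had 4125, 3986, 3853 and 4016 in PNA2 and 3404, 3192, 3320 and 3359 in siRNA libraries, against 3268 to 3736 (median 3648) in controls. At 72 h it had 3251, 3511, 3916, 2925 and 3198 in PNA2, against 2554, 2463, 2500, 2465 and 2343 in control libraries. PNA2 values were above all controls at both times (0.17 and 0.44, adjusted p = 0.0396 and 0.00283). The 48 h call of EIF3D was lost without any of control 1 to 4, unnumbered control 7, PNA2 3 or PNA2 4 (adjusted p = 0.052 to 0.108).

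EIF3H had 3707, 3238, 3277 and 3278 in PNA2 and 2919, 2981, 2852 and 2853 in siRNA libraries at 48 h, against 2682 to 3113 (median 2935) in controls. At 72 h it stood at 3001, 3711, 3501, 3522 and 3613 in PNA2, against 2742, 2850, 2209, 2359 and 2439 in control libraries. The PNA2 changes were 0.21 and 0.46 (adjusted p = 0.0159 and 0.0036), and the siRNA change was -0.07 and was not called. EIF3I was higher in PNA2 at 72 h (0.45, adjusted p = 0.00586) and lower in siRNA (-0.23, adjusted p = 0.0294; lost without control 1, 2 or 4 or any one siRNA library, adjusted p = 0.0571 to 0.0957). EIF3G, the RNA-binding subunit that helps scanning, had 4214, 3807, 3517 and 3627 in PNA2 and 2942, 2869, 3158 and 2968 in siRNA libraries, against 3190 to 4270 (median 3747) in controls. The siRNA libraries were all below the controls (-0.37, SE 0.08, adjusted p = 0.00739), and PNA2 against siRNA gave 0.40 (adjusted p = 0.00432). EIF3E was called higher in PNA2 than in siRNA libraries, but the call was lost without any of PNA2 1, 3 or 4 or siRNA 2, 3 or 4 (adjusted p = 0.0509 to 0.114).

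Of the other subunits, EIF3A, EIF3B and the loosely bound EIF3J were each called lower in at least 1 comparison with controls. EIF3A, the scaffold of the complex, had 5455, 4842, 5130 and 5686 in PNA2 and 5147, 5138, 4940 and 5097 in siRNA libraries at 48 h, against 5396 to 6425 (median 5787) in controls. At 72 h EIF3A had 4362, 4598, 3641, 4861 and 4856 in PNA2, against 5139, 5088, 5413, 5707 and 5263 in control libraries, all lower (-0.26, adjusted p = 0.0379), and the siRNA change was -0.25 (adjusted p = 0.03). EIF3J had 752.1, 746.8, 826.4, 889.6 and 820.5 in PNA2, against 1210, 809.9, 1058, 1024 and 1123 in control libraries at 72 h (-0.36, adjusted p = 0.0274). At 48 h EIF3J had 2138, 1978, 1675 and 1979 in PNA2 and 1837, 1871, 1643 and 1937 in siRNA libraries, against 1866 to 2620 (median 2168) in controls (-0.17, not called, and -0.35, adjusted p = 0.014). The 72 h calls of EIF3A and EIF3J were each lost without any one of 6 libraries, controls 1, 3, 4 and 5 and PNA2 1 and 2 (adjusted p = 0.061 to 0.0893 for EIF3A and 0.053 to 0.068 for EIF3J). The siRNA call of EIF3A was lost without control 1, 2 or 4 or any one siRNA library (adjusted p = 0.0648 to 0.105), and that of EIF3J without control 1 or siRNA 3 (adjusted p = 0.0582 and 0.0545). EIF3B, which ties eIF3 to the head of the small subunit, was lower in PNA2 at 48 h (-0.40, adjusted p = 0.0218), by -0.69 within batch A and -0.10 within B. PNA2 replicate 2, at 5055, lay below the other 3 at 6739 to 7532, and without it the change of EIF3B was -0.25. EIF3C and EIF3CL are near-identical copies whose reads cannot be told apart reliably, and their sum at 72 h was not called (-0.27, adjusted p = 0.102).

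**Figure D3:**
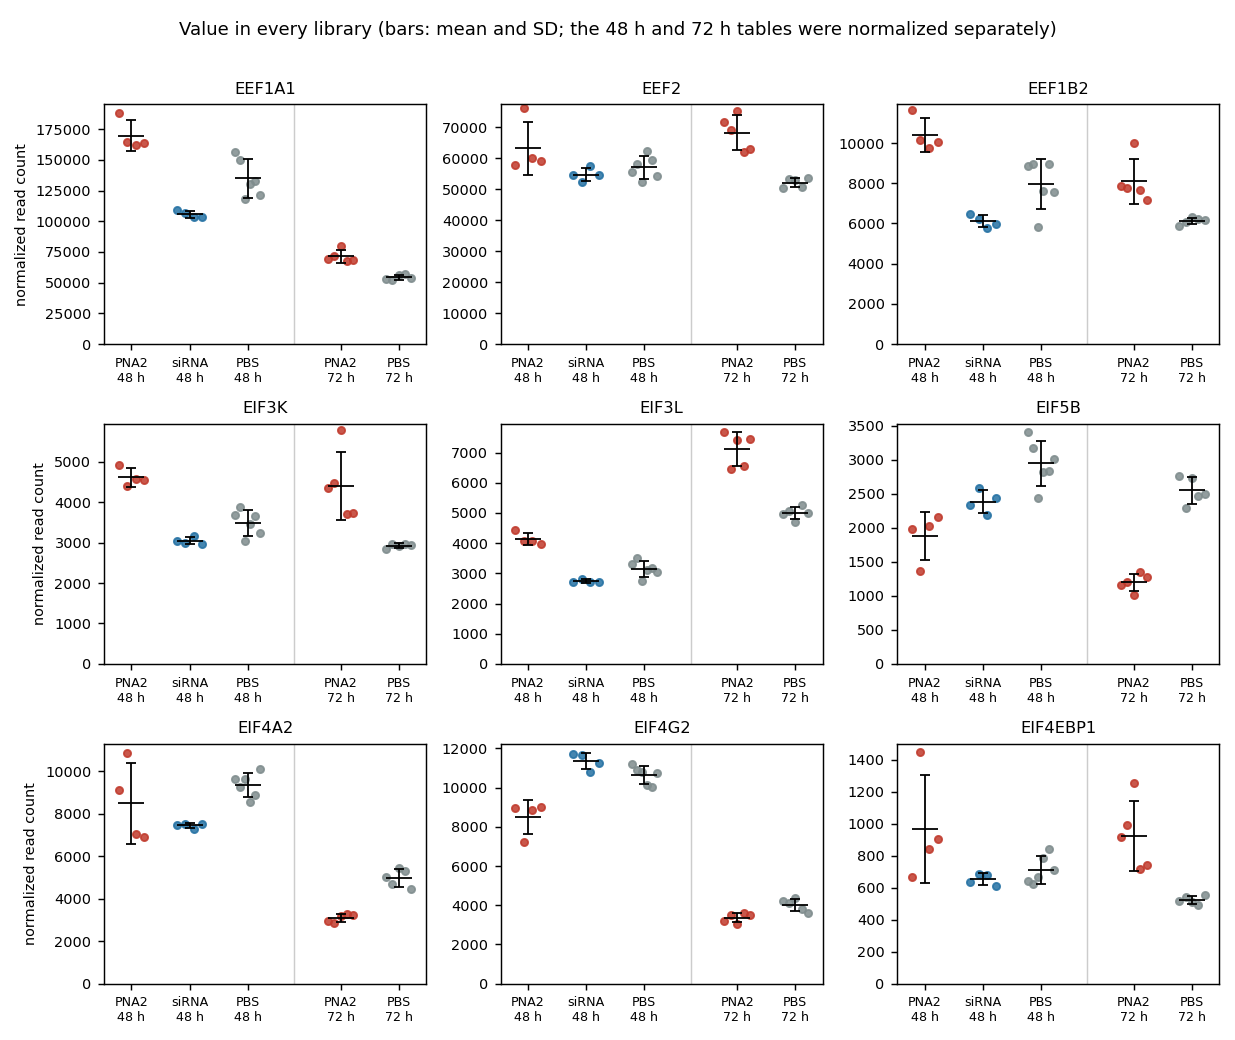
Normalised read counts of 9 members in every library (points), with group mean and SD (black), for PNA2, siRNA and PBS at 48 h and PNA2 and PBS at 72 h; levels are comparable only on the same side of the grey line. EEF1A1, EEF1B2, EIF3K and EIF3L are highest in PNA2 at both times, while EIF5B and EIF4G2 are lowest there.

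EIF5B, the GTPase that joins the ribosomal subunits at the start codon, showed the deepest fall among members at 72 h. It lies at chr2:99337353-99401326 on the forward strand (GRCh38, GENCODE 29). At 72 h EIF5B had 1156, 1198, 1006, 1350 and 1278 in PNA2, against 2760, 2295, 2730, 2466 and 2503 in control libraries. The change was -1.09 (SE 0.09, adjusted p = 5.22e-05). At 48 h it had 1986, 1363, 2019 and 2160 in PNA2 and 2330, 2582, 2186 and 2437 in siRNA libraries, against 2445 to 3402 (median 2921) in controls. PNA2 libraries lay below all controls at both times (-0.66 at 48 h, SE 0.12, adjusted p = 0.00199; -0.92 within batch A and -0.40 within B, and -0.49 without PNA2 replicate 2), and the siRNA change of -0.29 was not called (adjusted p = 0.143). In PNA2 and control libraries at 72 h the call held without any one library and in the tests on recovered reads by edgeR and DESeq2.

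The other members grouped with EIF5B gave 2 higher and 1 lower at 72 h in PNA2 libraries. With EIF5B, 7 members were tested under start codon selection and subunit joining. The grouping serves for counting, and not every member, such as EIF1AD, is an established factor of these steps. Of all genes, 12.1% were higher and 11.7% lower. EIF6, which keeps the large subunit from joining too early, had 1918, 2298, 2954, 1730 and 1877 in PNA2, against 1482, 1649, 1506, 1337 and 1631 in control libraries. The groups did not overlap (0.48, SE 0.13, adjusted p = 0.0223), and the call was lost without control 4 or PNA2 2 (adjusted p = 0.0564 and 0.0547). At 48 h EIF6 had 1165, 1077, 1121 and 1079 in PNA2 and 1038, 908.8, 1105 and 1034 in siRNA libraries, within the control range of 942.7 to 1198 (median 1122) except for siRNA 2. EIF1, the gatekeeper of start codon choice, was higher in PNA2 at 72 h (0.40, adjusted p = 0.00711). Its 48 h change in PNA2 of 0.45 was not called and rested on replicate 2, at 11259 next to 5097 to 5761 in the other PNA2 libraries: it was 0.84 within batch A, 0.06 within B and 0.14 without that library. In PNA2 over siRNA libraries the change was 0.68 for EIF1 (adjusted p = 0.0295), 0.24 without PNA2 replicate 2, and the call was lost without any one siRNA library (adjusted p = 0.0536 to 0.0632). EIF1AX, the partner of EIF1, was lower at 72 h (-0.30, adjusted p = 0.0497), a call lost without PNA2 1, 2 or 3 or control 1, 3, 4 or 5 (adjusted p = 0.0684 to 0.114).

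eIF2 and its exchange factor eIF2B are the point at which stress kinases slow initiation. The group counted here holds the eIF2 subunits EIF2S1, EIF2S2 and EIF2S3, and also EIF2A and EIF2D, which are not subunits of eIF2. By limma, 0 of these 5 members passed in PNA2 at 72 h, and 0 at 48 h. At an unadjusted limma p under 0.05 only EIF2S1 was lower at both times and EIF2D higher at 72 h. EIF2S1, the subunit that is phosphorylated, had 1773, 1314, 1827 and 1910 in PNA2 and 2122, 2149, 2038 and 2014 in siRNA libraries, against 1745 to 2109 (median 2031) in controls. PNA2 against siRNA gave -0.34 (adjusted p = 0.0333), but -0.16 without PNA2 replicate 2, and the call was lost without that library or any one siRNA library (adjusted p = 0.0524 to 0.135). At 72 h EIF2S1 had 1313, 1412, 1383, 1484 and 1377 in PNA2, against 1683, 1459, 1528, 1627 and 1617 in control libraries, a change of -0.18 that missed the threshold in limma (adjusted p = 0.0564) and passed in edgeR and DESeq2 on recovered reads. EIF2S3, which binds GTP and the initiator tRNA, had 7780, 7582, 6688 and 6789 in PNA2 and 6012, 5785, 5539 and 5830 in siRNA libraries, against 6048 to 7750 (median 6312) in controls. It was lower in siRNA libraries than in all controls (-0.30, SE 0.07, adjusted p = 0.0103) and higher in PNA2 than in siRNA (0.41, adjusted p = 0.00138). EIF2S2, the third subunit, had 2941, 3542, 2877 and 2908 in PNA2 and 2749, 2671, 2642 and 2739 in siRNA libraries, against 2843 to 3481 (median 3068) in controls. The siRNA libraries were again below all controls (-0.30, adjusted p = 0.00952). Set against siRNA, PNA2 libraries gave 0.26 for EIF2S2 (adjusted p = 0.0216), lost without PNA2 2, siRNA 2 or siRNA 3 (adjusted p = 0.0584 to 0.0606).

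Of the 5 eIF2B subunits, 3 were lower in PNA2 than in control libraries at 48 h, against 8.58% of all genes. EIF2B4 had 693.3, 702.8, 669 and 667.7 in PNA2 and 670.1, 756.5, 762.1 and 737.7 in siRNA libraries, all below the controls at 824.1 to 907.1 (median 864.6). Its change was -0.33 in PNA2 (SE 0.06, adjusted p = 0.00161, and -0.33 in either batch) and -0.27 in siRNA (adjusted p = 0.0101); at 72 h it was -0.13 and not called. EIF2B5, the catalytic subunit, had 1848, 1532, 1917 and 1923 in PNA2 and 2109, 2171, 2207 and 2088 in siRNA libraries, against 1985 to 2199 (median 2107) in controls. Its PNA2 change of -0.22 (adjusted p = 0.0299) was lost without PNA2 2, control 2 or control 4 (adjusted p = 0.0605, 0.0648 and 0.0685). EIF2B2 had 633.4, 570.2, 624.2 and 706.7 in PNA2 and 662.5, 737.2, 748.4 and 682.7 in siRNA libraries, against 693.5 to 858.2 (median 783.7) in controls. It was lower in PNA2 at 48 h (-0.30, adjusted p = 0.0158). At 72 h EIF2B2 had 710.1, 655.5, 741, 606.9 and 561.3 in PNA2, all above the 494.7 to 541.2 of control libraries (0.33, adjusted p = 0.0179). It was the single member called in opposite directions at the 2 times. The 48 h call of EIF2B2 was lost within batch B (-0.19, limma adjusted p = 0.268) and without rescaling (-0.11, adjusted p = 0.57). It was also lost with the 2 groups alone (adjusted p = 0.0561) and with a replicate block (adjusted p = 0.111).

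The eIF4 group binds the cap (EIF4E), scaffolds it (EIF4G1) and unwinds the leader (EIF4A1, EIF4A2, EIF4B). The group as counted also holds EIF4A3, a helicase of the exon junction complex. Of 11 members tested, 3 were lower and 0 higher in PNA2 than in control libraries at 48 h. The shares of all genes were 8.58% and 8.13%. At 72 h 2 of the group were lower and 0 higher, against 11.7% and 12.1% of all genes. In siRNA libraries 3 were lower and 0 higher, against 8.06% and 9.34% of all genes. EIF4E had 1275, 1128, 1323 and 1232 in PNA2 and 1201, 1189, 1215 and 1187 in siRNA libraries, against 1168 to 1641 (median 1292) in controls. At 72 h EIF4E had 815.2, 720.3, 720.7, 905 and 803 in PNA2, against 889.9, 803, 815.4, 930.9 and 804.2 in control libraries. The groups overlapped and no change was called (-0.13, -0.23 and -0.10, with 95% intervals of -0.30 to 0.04, -0.42 to -0.04 and -0.28 to 0.08). EIF4G1 had 18307, 16128, 19674 and 19915 in PNA2 and 20150, 20513, 21431 and 20404 in siRNA libraries, against 20446 to 25367 (median 23954) in controls. All PNA2 libraries lay below the controls (-0.34, adjusted p = 0.0163, with -0.53 within batch A and -0.14 within B). The 48 h call of EIF4G1 was lost within batch B (limma adjusted p = 0.357) and without rescaling (adjusted p = 0.503). It was also lost with the 2 groups alone (adjusted p = 0.0709) and with a replicate block (adjusted p = 0.116). At 72 h it had 10978, 10667, 8292, 10197 and 10363 in PNA2, against 10616, 11966, 9556, 10697 and 10536 in control libraries, with no call (-0.08).

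EIF4G2, a cap-independent relative of the scaffold that does not bind EIF4E, had 8941, 7239, 8845 and 9017 in PNA2 and 11710, 11664, 10783 and 11277 in siRNA libraries at 48 h, against 10030 to 11225 (median 10770) in controls. At 72 h it had 3185, 3492, 3038, 3603 and 3489 in PNA2, against 4225, 4092, 4364, 3822 and 3602 in control libraries. It was lower in PNA2 at both times (-0.33 and -0.26, adjusted p = 0.00819 and 0.0243; -0.42 within batch A and -0.23 within B) and stood at 0.12 in siRNA, not called. PNA2 against siRNA gave -0.44 (adjusted p = 0.00209). The 72 h call of EIF4G2 was lost without control 1, control 3 or PNA2 1 (adjusted p = 0.0573 to 0.0625). Its 48 h call against controls was lost within batch B (limma adjusted p = 0.0718) and without rescaling (adjusted p = 0.51).

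EIF4A2 had 2931, 2861, 3167, 3273 and 3242 in PNA2, against 5012, 4687, 5456, 5278 and 4450 in control libraries at 72 h, all lower (-0.68, SE 0.07, adjusted p = 0.000238). At 48 h it had 9106, 10872, 7024 and 6918 in PNA2 and 7455, 7505, 7296 and 7522 in siRNA libraries, against 8567 to 10080 (median 9423) in controls. The PNA2 libraries split by batch, with changes of 0.12 within batch A and -0.45 within B, and the whole was not called (-0.16). The siRNA libraries were all below the controls (-0.41, SE 0.11, adjusted p = 0.0182), a call lost without siRNA 3 (adjusted p = 0.0501). EIF4A1, the main helicase, had 73.7, 86.09, 66.79 and 57.56 in PNA2 and 98.94, 82.53, 90.55 and 85.39 in siRNA libraries at 48 h, against 97.48 to 190.8 (median 131) in controls. It was lower in PNA2 (-0.92, adjusted p = 0.00371) and in siRNA (-0.62, adjusted p = 0.0412), where the call was lost without control 1, control 4, unnumbered control 7 or any one siRNA library (adjusted p = 0.0568 to 0.111). At 72 h EIF4A1 had 2876, 2690, 3842, 2576 and 2250 in PNA2, against 3131, 1991, 3076, 1939 and 2583 in control libraries, with no call (0.17). Its exons are shared with the readthrough gene SENP3-EIF4A1 (29.8% of exon bases) and with AC016876.2 (41.1%), so the small 48 h values of EIF4A1 are uncertain; the sum of EIF4A1 and SENP3-EIF4A1 at 72 h was -0.05 (adjusted p = 0.802). EIF4B, the helicase cofactor, had 12606, 12831, 11917 and 12768 in PNA2 and 9804, 9814, 9181 and 9424 in siRNA libraries, against 10269 to 12613 (median 11443) in controls. The siRNA libraries were below all controls (-0.33, SE 0.07, adjusted p = 0.00543), and PNA2 against siRNA gave 0.47 (adjusted p = 0.000461).

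The eIF4E-binding proteins hold EIF4E away from EIF4G1. EIF4EBP1 had 917.4, 992.3, 1256, 715.6 and 743.4 in PNA2, against 516.3, 542.7, 509.6, 492.8 and 556.7 in control libraries at 72 h. Every PNA2 library was above every control (0.79, SE 0.14, adjusted p = 0.00275). At 48 h it had 666.8, 1449, 844.2 and 904.6 in PNA2 and 636.8, 686, 681.4 and 611.1 in siRNA libraries, against 621.1 to 839.9 (median 688.6) in controls. Replicate 2 again stood above the other PNA2 libraries; the change was 0.39 (adjusted p = 0.0968) with it and 0.14 without it. EIF4EBP2 stood at 0.06 and 0.02 in PNA2, not called (95% intervals of -0.05 to 0.17 and -0.15 to 0.18). EIF4EBP3 was called higher in PNA2 at 72 h (1.00, adjusted p = 0.0401) at values of 22.12 to 65.87, against 16.44 to 37.39 in control libraries, but 73.4% of its exon bases belong also to the readthrough gene ANKHD1-EIF4EBP3, and their sum was at -0.31 (adjusted p = 0.286). Leaving out any library but PNA2 4 or control 4 also ended the call of EIF4EBP3 (adjusted p = 0.0642 to 0.095). EIF4ENIF1, the carrier that brings EIF4E to the nucleus, had 731, 523.4, 747 and 762 in PNA2, all below the 844.3, 896.3, 846 and 875.5 of siRNA libraries (-0.40, adjusted p = 0.0116), and the controls lay between, at 735.7 to 845 (median 802.2), overlapping both.

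Grouped by the start sequence shown above, members with a tract had higher medians than members without one in both PNA2 comparisons with controls. At 48 h 4 of the 12 with a tract were higher than in controls and 0 were lower, with a median of 0.14; of 35 tested without a tract 0 were higher and 9 lower, with a median of -0.18. At 72 h 5 of 12 with a tract were higher and 1, EIF4A2, was lower (median 0.25), while 7 of 37 without one were higher and 5 lower (median 0.02). In PNA2 against siRNA, 7 of 12 with a tract were higher and 0 lower, with all 12 changes above 0 (median 0.36), against 5 higher and 4 lower of 35 without (median -0.04). In siRNA against control 7 of 12 with a tract and 5 of 35 without were lower, 0 were higher in either class, and the medians were -0.23 and -0.19. The 13 tested members without a RefSeq window, among them EIF3L, EIF3H and EEF1A2, belong to neither class. In PNA2 against control 3 of them were higher and 0 lower at 48 h (median 0.11), and 4 and 1 at 72 h (median 0.04). In PNA2 against siRNA 6 were higher and 0 lower, with all 13 above 0 (median 0.28). In siRNA against control 0 were higher and 5 lower (median -0.19). Over all genes tested, 8.13% were higher and 8.58% lower in PNA2 against control at 48 h, and 12.1% and 11.7% at 72 h. The shares were 11.5% and 12.4% in PNA2 against siRNA, and 9.34% and 8.06% in siRNA against control. Some class counts lie near these shares, among them 5 of 37 lower at 72 h and 5 of 35 higher in PNA2 against siRNA, both without a tract. These are counts and medians of lists, and the difference between the classes was not tested.

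**Figure D4:**
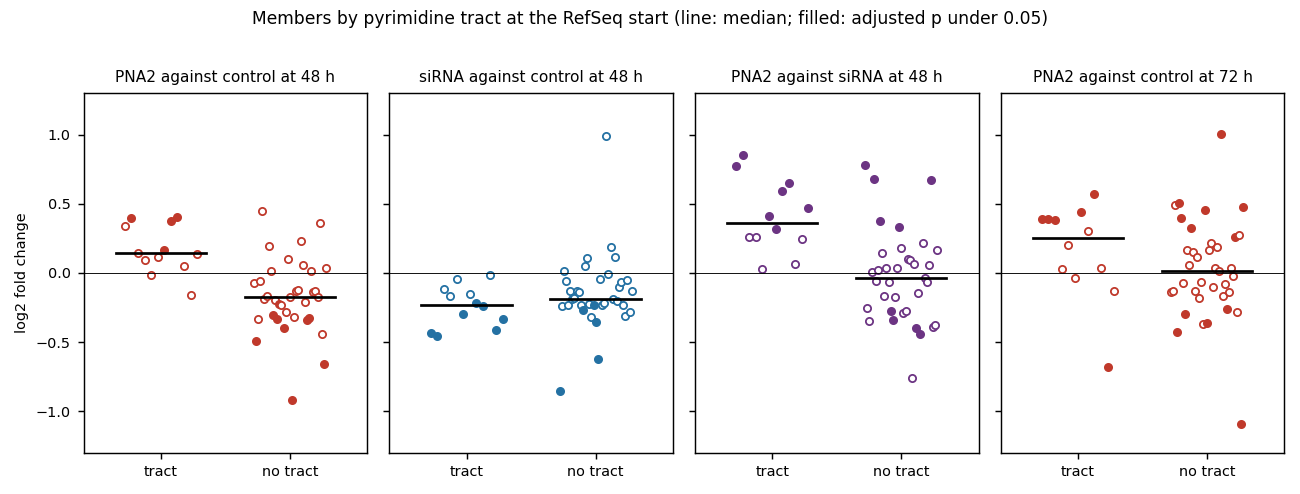
Log2 fold change of the members with and without a pyrimidine tract at the RefSeq start in the 4 comparisons; black lines are medians and filled points have a limma adjusted p under 0.05. Medians with and without a tract are 0.14 and -0.18 in PNA2 against control at 48 h, -0.23 and -0.19 in siRNA against control, 0.36 and -0.04 in PNA2 against siRNA, and 0.25 and 0.02 in PNA2 against control at 72 h. The 13 tested members without a RefSeq window are not shown.

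For scale, the cytoplasmic ribosomal proteins, the best known TOP mRNAs, counted 68 higher and 2 lower of 82 in PNA2 against control at 48 h (median 0.45), 76 and 0 of 83 at 72 h (0.59), 1 and 69 of 82 in siRNA against control (-0.43), and 76 and 0 of 82 in PNA2 against siRNA (0.86). Among all other genes with such a tract, members and ribosomal proteins left out, 13.8% of 673 were higher and 7.28% lower in PNA2 at 48 h, and 17.6% of 643 were higher and 9.64% lower at 72 h. Genes without a tract had 7.89% and 8.89% of 9234 at 48 h, and 11.1% and 12% of 8626 at 72 h. In siRNA against control 7.13% of the other genes with a tract were higher and 13.1% lower, next to 10.2% and 7.99% of those without one. In PNA2 against siRNA the shares were 20.8% and 9.36% with a tract and 11.3% and 13.2% without. Of the 9 members listed as known TOP mRNAs (EEF1A1, EEF1B2, EEF1D, EEF1G, EEF2, EIF3E, EIF3F, EIF3H and EIF4B), 8 were tested at 48 h. All 8 had a PNA2 change above 0, and 3 were called higher and 0 lower. At 72 h 7 of the 9 were above 0 and 2 below, with 4 called higher and 0 lower. In siRNA against control all 8 were below 0 and 5 were called lower, and in PNA2 against siRNA all 8 were above 0 and 7 were called higher.

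The E-box CACGTG, the motif bound by MYC with MAX, reads the same on either strand and does not overlap the tract pattern. It occurred within 250 bases before to 50 after the start of 13 of 50 members (26%), against 8.77% of the 27305 genes. Windows of 4 of them follow, with the motif in capitals: the cap-binding protein and its scaffold, and 2 members with a tract, EIF3F and EIF4B, that were lower in siRNA libraries.
EIF4E (chr4:98929188-98929217, reverse strand): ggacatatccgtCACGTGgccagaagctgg
EIF4G1 (chr3:184314527-184314556, forward strand): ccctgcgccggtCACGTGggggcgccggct
EIF3F (chr11:7987257-7987286, forward strand): aaagctctagctCACGTGgtgtatattcag
EIF4B (chr12:53006422-53006451, forward strand): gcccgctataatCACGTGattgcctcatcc

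In these 4 windows the motif begins 72, 67, 68 and 22 bases before the start. In siRNA libraries, where MYC was lower, 3 of 12 tested members with the motif were lower (EIF3F, EIF3K and EIF4B) and 9 of 35 without it, with medians of -0.20 and -0.19. In PNA2 libraries the counts were 2 higher and 1 lower of 12 with the motif and 2 higher and 8 lower of 35 without it at 48 h, and 3 and 1 of 13 against 9 and 5 of 36 at 72 h. Of all genes tested, 8.06% were lower in siRNA libraries. In PNA2 libraries 8.13% were higher and 8.58% lower at 48 h, and 12.1% and 11.7% at 72 h.

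The 2 PNA2 comparisons share no control library. Of the 7 members higher at 48 h, 6 were also higher at 72 h (85.7% of the 7 and 37.5% of the 16): EEF1A2, EEF1B2, EIF3D, EIF3H, EIF3K and EIF3L. Among all genes higher at 48 h and tested at both times, 34.2% of 1046 were higher at 72 h. Of the 9 lower members, EIF5B and EIF4G2 were also lower at 72 h (22.2% of the 9 and 28.6% of the 7), against 32.3% among all genes lower at 48 h.

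Members took 2.71% to 2.98% of all counts in PNA2 and 2.34% to 2.40% in siRNA libraries at 48 h, against 2.52% to 2.82% in controls, and 2.31% to 2.50% in PNA2 against 2.14% to 2.30% in control libraries at 72 h. These shares count EEF1G without AP002990.1, the gene that shares its exons. EEF1G alone took 0.0893% to 0.265% in PNA2 and 0.0743% to 0.217% in control libraries at 72 h, and 0 at 48 h. EEF1A1 made up 1.16% ± 0.06 in PNA2 (n = 4), 0.773% ± 0.02 in siRNA (n = 4) and 0.96% ± 0.09 in control libraries (n = 6) at 48 h (SD). In bulk RNA a shift in the mix of cells and a change per cell cannot be told apart.

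Beyond the members, 44 other genes of the translation pathway were followed. In PNA2 against control 4 were higher and 7 lower at 48 h, and 3 were higher and 10 lower at 72 h; in siRNA against control 2 were higher and 6 lower, and in PNA2 against siRNA 9 were higher and 4 lower. The shares of all genes tested were 8.13% and 8.58% in PNA2 against control at 48 h, 12.1% and 11.7% at 72 h, 9.34% and 8.06% in siRNA against control, and 11.5% and 12.4% in PNA2 against siRNA. TPT1, whose mRNA is itself a TOP mRNA, was higher in PNA2 at both times (0.38 and 0.92, adjusted p = 0.00652 and 0.00675). GSPT1, the GTPase of translation termination, was lower at both times (-0.33 and -0.19, adjusted p = 0.00778 and 0.0472). PABPC4, a poly(A)-binding protein, was lower in PNA2 at 48 h (-0.16, adjusted p = 0.0488) and in siRNA (-0.40, adjusted p = 0.000723). Of 10 genes of mTOR, S6 kinase and MNK signalling, 0 passed in PNA2 at 48 h by limma, and at 72 h MLST8 was higher (0.34, adjusted p = 0.0165) and MTOR (-0.29, adjusted p = 0.0332), TSC1 and RPS6KB1 were lower. DDX3X, a helicase that aids scanning, was lower at 72 h (-0.66, adjusted p = 0.0304). Of 8 enzymes that make hypusine on eIF5A or diphthamide on eEF2, 4 were lower in PNA2 at 48 h (DHPS, DOHH, DPH2 and DPH7) and 1 was higher (DPH5); in siRNA 3 were lower and 0 higher.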

How the data were processed

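The submitters' processing notes name GRCh38 and, without roles or order, HISAT2 2.2.1, HTSeq 0.11.0, Trimmomatic, SAMtools 1.7 and DESeq2. TruSeq stranded total RNA and mRNA kits are given per the labels' protocols, without saying which libraries used which; use of strand in counting is not given in the sources used here. The 72 h table holds signal deposited by the authors as read counts divided by a size factor per library (0.73 to 1.187); values times that factor were whole numbers in 100% of cases, within 0.01. The 48 h values are in another unit, counts that the authors deposited after an adjustment by gene and batch and that were not divided by depth; 5099 genes have a value below 0. Of 8488 genes with low values, libraries of one batch tied in 21.5% to 35.3% and libraries of different batches in 0%, which gave batches A and B. A pair of control columns share a header and are called unnumbered controls 6 and 7.

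At 48 h values below 0 were set to 0 and divided by a TMM scale (edgeR 4.0.16). In R 4.3.3, a limma 3.58.1 trend model of log2(value + 1) took group and batch as terms over all groups; at 72 h the deposited values were fitted with group alone. Genes needed a value of 10 in 4 libraries at 48 h or 5 at 72 h. Fold changes are on the log2(value + 1) scale, first-named group over the other, with two-sided p adjusted by Benjamini-Hochberg over all genes tested, threshold 0.05. edgeR quasi-likelihood and DESeq2 1.42.0 were run on the recovered 72 h reads as alternatives. The model was tested on simulated data.

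The members, gene lists and naming rule were chosen with earlier results of these data known. Values in every library are given for fixed core factors and for the 6 members with the smallest adjusted p per direction and comparison; other members appear by fold change, count or range. Gene positions came from GENCODE 29, which holds all 64 members, and start windows from RefSeq.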

Additional observations from a re-analysis of the deposited data

Results flagged for a closer look

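Over the tested members and MYC, 312 groups of 4 to 6 libraries were compared with a gap test (Dixon, 95%), and 21 values stood apart from the rest of their group; chance flags about 1 in 20 groups. At 48 h, 8 of them were in PNA2 replicate 2: EEF2 at 75991, EIF1 at 11259, EIF2A at 3778, EIF2S2 at 3542, EIF4A3 at 1786, EIF4ENIF1 at 523.4, EIF4G2 at 7239 and EIF5A2 at 433.7. Another 2 were in PNA2 replicate 1, EEF1A1 at 188351 and EIF3H at 3707. In siRNA libraries EIF1 stood at 4176 in replicate 1, EIF3I at 3251 in replicate 3 and EIF4EBP2 at 2529 in replicate 4, and in control replicate 1 EIF4EBP3 stood at 2.334. At 72 h EEF1B2 stood at 10009, EIF4A3 at 3663 and MYC at 459.9 in PNA2 replicate 3, EIF2B1 at 1106 in PNA2 replicate 4 and EIF3C at 127.8 in PNA2 replicate 5. In control replicate 3 at 72 h EIF2B1 stood at 1249 and EIF3F at 2515.

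In 3 members every PNA2 library lay on opposite sides of the control mean at the 2 times. The change was -0.30 at 48 h and 0.33 at 72 h for EIF2B2, -0.20 and 0.15 for EIF2B3, and -0.32 and 0.21 for EIF4A3. EIF2B3 and EIF4A3 were not called at either time. The difference between the times was not tested, since the tables were normalized separately.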

How the results depend on the processing

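Several 48 h counts moved with library scaling and batch handling; the causes were not tested. In PNA2 against control at 48 h, 7 higher and 9 lower members became 11 and 2 without rescaling, 12 and 2 without rescaling or batch term, and 3 and 5 with the 2 groups alone; batch B alone gave 4 lower. In siRNA against control, 17 lower became 0 without rescaling (with 2 higher), 0 without rescaling or batch term, 5 without the batch term, 11 without a filter on low values and 28 with the 2 groups alone (with 3 higher). In PNA2 against siRNA, 18 higher became 6 without rescaling and 7 without rescaling or batch term, and 4 lower became 1, 0, 2 without a filter and 7 with the 2 groups alone. Without rescaling EIF3F turned to 0.007111 in siRNA against control, and without the batch term as well EIF3F, EIF3K and EIF3L stood at 0.05293, 0.009921 and 0.008523. Leaving out each library gave 5 to 9 higher and 8 to 13 lower in PNA2 against control at 48 h, 0 to 1 and 8 to 17 in siRNA against control, 13 to 20 and 3 to 5 in PNA2 against siRNA, and 13 to 17 and 3 to 9 at 72 h. At 72 h TMM scaling, edgeR and DESeq2 each gave 16 higher and 8 lower.

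Correlations of same-numbered deviations ran from -0.0438 to 0.108 at 72 h and from -0.0651 to 0.297 at 48 h. Differently numbered libraries were not compared, so these values cannot decide whether the replicate numbers pair the libraries. With a replicate block the counts were 15 higher and 5 lower at 72 h, and in the numbered 48 h libraries 5 and 5 in PNA2 against control, 0 and 2 in siRNA against control and 9 and 2 in PNA2 against siRNA.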
